A study of Mus musculus with 7 samples.

Results

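Of 326695 regions of open chromatin in the embryonic mouse gut, 5276 (1.61%) were found at embryonic day 13 in both stomach and intestine and at day 16 in Sox2 knockout (KO) stomach, and in none of the 4 wild-type libraries of day 16. They were chosen by that pattern: the peaks of 7 ATAC-seq lists on chromosomes 1 to 19 and X were merged where they overlapped by at least 1 bp, and a merged region was kept where exactly those 3 lists held a peak in it. The pattern itself is therefore not a finding, and the counts that follow from it are given as description. ATAC-seq marks accessible DNA, such as active promoters and enhancers, by where a transposase can cut it, and a peak is a stretch with an excess of cuts.

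There was 1 library per group. E13 stomach and E13 intestine came from ShhCre; R26YFP/+ embryos, in which Cre made under the control of Shh switches on a yellow reporter in cells that express Shh and in their descendants. The organs were dissociated with trypsin and sorted, and 50000 cells from 3 to 4 embryos went into each library; the sources used here do not give the sort gate. E16 forestomach, hindstomach, proximal small intestine and colon epithelium came from embryos of the same genotype. The forestomach was treated with dispase and peeled from the mesenchyme, and the other epithelia were shaken off in 10 mM (hindstomach) or 5 mM EDTA (intestine, colon). For the E16 Sox2 KO stomach, the sources used here give neither the allele and the driver of the deletion nor the part of the stomach and the isolation. Stage and isolation method thus differ together between the E13 and wild-type E16 groups, and their parts in any difference cannot be told apart. With 1 library per group no difference between groups was tested. The lists hold positions only, so depth is unknown; intervals are 95% Wilson intervals that cover counting error only.

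The foregut transcription factor SOX2 is needed for stomach identity, whereas CDX2 specifies intestine. Hedgehog ligands made by the gut epithelium act on the mesenchyme around it, through the receptor PTCH1, the signal transducer SMO and the GLI transcription factors. Enhancers and promoters that regulate such genes can be open early in development and closed later, or the reverse.

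Sequences are shown where member peaks cover annotated starts, so that the bases open in all 3 libraries can be read. They are the 250 bases before the start site for the 6 regions at a gene end that had the largest smallest peak of the 3 libraries and lay over a RefSeq start (GRCm38.p6). Capitals mark bases under a peak in all 3 libraries, and each sequence runs 5′ to 3′ in the sense of the gene.
Gli3 (chr13:15463473-15463722, plus strand): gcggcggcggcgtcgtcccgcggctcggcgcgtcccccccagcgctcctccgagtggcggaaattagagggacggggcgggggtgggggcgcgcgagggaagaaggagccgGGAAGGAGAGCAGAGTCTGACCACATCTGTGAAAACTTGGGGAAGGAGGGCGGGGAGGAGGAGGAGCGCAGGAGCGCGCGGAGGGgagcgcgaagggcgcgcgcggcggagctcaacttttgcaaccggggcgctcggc
Fgfr4 (chr13:55152568-55152817, plus strand): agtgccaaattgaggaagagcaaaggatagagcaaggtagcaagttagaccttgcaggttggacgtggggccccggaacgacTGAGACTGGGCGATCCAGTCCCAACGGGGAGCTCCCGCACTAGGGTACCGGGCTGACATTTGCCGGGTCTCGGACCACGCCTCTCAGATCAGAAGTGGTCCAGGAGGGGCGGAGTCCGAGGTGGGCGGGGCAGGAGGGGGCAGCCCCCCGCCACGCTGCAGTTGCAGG
Syndig1 (chr2:149830533-149830782, plus strand): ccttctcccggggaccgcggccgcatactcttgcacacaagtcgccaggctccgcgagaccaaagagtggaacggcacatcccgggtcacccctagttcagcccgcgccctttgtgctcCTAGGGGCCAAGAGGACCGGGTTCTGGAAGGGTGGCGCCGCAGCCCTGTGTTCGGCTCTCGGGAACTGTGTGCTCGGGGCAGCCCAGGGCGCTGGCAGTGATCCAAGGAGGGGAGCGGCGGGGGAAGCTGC
Pak7 (chr2:136387968-136388217, minus strand): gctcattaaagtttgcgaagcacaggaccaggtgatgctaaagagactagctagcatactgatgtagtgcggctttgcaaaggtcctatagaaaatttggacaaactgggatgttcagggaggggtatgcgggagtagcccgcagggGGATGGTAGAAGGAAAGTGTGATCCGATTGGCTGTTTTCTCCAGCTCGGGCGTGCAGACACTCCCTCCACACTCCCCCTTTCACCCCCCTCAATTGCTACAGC
Arhgef40 (chr14:51984583-51984832, plus strand): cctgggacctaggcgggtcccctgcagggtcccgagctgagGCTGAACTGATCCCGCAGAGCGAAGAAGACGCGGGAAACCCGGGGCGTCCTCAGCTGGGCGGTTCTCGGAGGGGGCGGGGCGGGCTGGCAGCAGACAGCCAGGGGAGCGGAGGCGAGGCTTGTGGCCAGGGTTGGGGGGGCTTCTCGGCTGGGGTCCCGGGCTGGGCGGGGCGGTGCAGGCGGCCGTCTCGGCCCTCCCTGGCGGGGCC
Lpar2 (chr8:69822315-69822564, plus strand): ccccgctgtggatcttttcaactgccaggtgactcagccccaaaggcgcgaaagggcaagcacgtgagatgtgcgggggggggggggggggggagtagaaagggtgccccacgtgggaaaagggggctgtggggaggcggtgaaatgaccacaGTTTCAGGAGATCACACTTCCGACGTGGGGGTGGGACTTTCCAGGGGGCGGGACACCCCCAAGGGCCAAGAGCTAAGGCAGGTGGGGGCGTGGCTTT
In Gli3, a transcription factor that mediates Hedgehog signalling mainly as a repressor, the widest peaks measured 720 bp in E13 stomach, 408 bp in E13 intestine and 530 bp in KO stomach, and 85 of the 250 bases lay under peaks of all 3 libraries. The 408 bp peak ends before these bases, and the capitals rest on another E13 intestine peak of 86 bp in the same region. Here and for other members, the width given is that of the widest peak where a library had several in the region. In Fgfr4, a fibroblast growth factor (FGF) receptor, the widest peaks measured 628, 392 and 766 bp in the same order, and 168 of the bases were shared. The 392 bp peak lies outside the printed bases, and the capitals rest on another E13 intestine peak of 290 bp in the same region. Syndig1, a synaptic protein, had 131 shared bases, Pak7, a protein kinase, 103, Arhgef40, a guanine nucleotide exchange factor, 209, and Lpar2, a lysophosphatidic acid receptor, 97. The nearest peak of a wild-type E16 library was 3982 bp away from the Gli3 region, 2494 bp from Fgfr4, 14275 bp from Syndig1, 2375 bp from Pak7 and 734 bp from Arhgef40. At Lpar2 it touched the region (0 bp apart, with no shared base), so this start counts only by a narrow margin.
The 6 sequences were rich in G and C, from 52.4% in Pak7 to 75.2% in Arhgef40, and held between 7 (Pak7) and 34 (Gli3) CG dinucleotides.

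Overlap of the peaks was part of the choice of members, so the alignment of peaks is given as description. In 5115 of the 5276 (96.9%) at least 1 base lay under peaks of all 3 libraries, with a median of 79 such bases, and in 161 the 3 lists were joined only in a chain. Peak centres were a median of 25 bp apart between E13 stomach and E13 intestine, 25 bp between E13 stomach and KO, and 25.5 bp between E13 intestine and KO. In regions of all 7 libraries, which are wider, these medians were 33.5, 30.5 and 43.0 bp. Centres lay within 50 bp of each other in 75.8%, 73.9% and 73.0% of members. Median peak width was 147 bp in E13 stomach (lowest 77, highest 1057), 108 bp in E13 intestine (62 to 753) and 163 bp in KO stomach (71 to 1149). All peaks of the same lists had medians of 138, 108 and 153 bp, so the members had about the usual widths of their lists. The KO peak was the widest of the 3 in 52.0% of members, the E13 stomach peak in 34.8% and the E13 intestine peak in 12.7%.

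**Figure D1:**
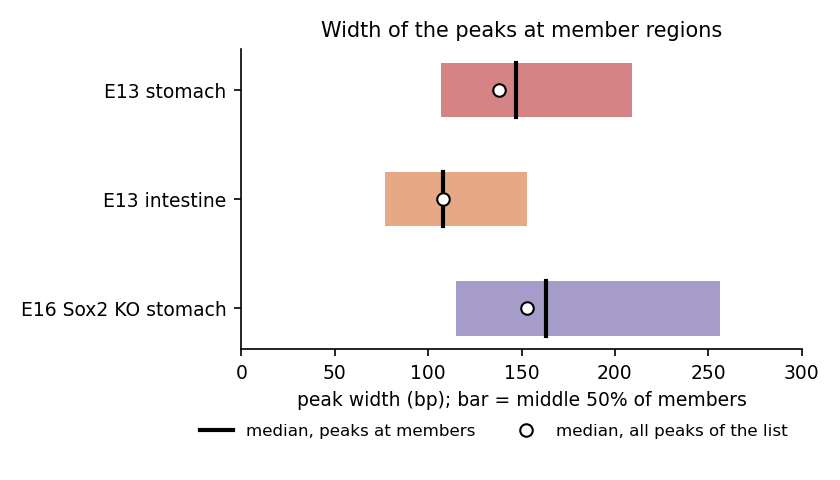
Width in bp of the peaks at the 5276 member regions in the 3 libraries that hold them; bars span the middle 50% of members, black lines are medians and open circles the median of all peaks of that list. The medians at members (147, 108 and 163 bp) lie at or within 10 bp above those of the whole lists.

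The threshold of 1 bp and the absence from 4 lists set the edges of the group. The narrowest join was 1 bp; 29 members were joined by 10 bp or less and 299 by 50 bp or less. Just outside, of the 2300 regions with peaks in both E13 lists and in no E16 list, 3 had a KO peak within 10 bp and 21 within 50 bp. On the other side, 17 members had a wild-type E16 peak within 10 bp and 1156 (21.9%) within 500 bp, while the median distance to the nearest such peak was 2.04 kb. Hindstomach came within 500 bp of 694 members, forestomach of 575, colon of 534 and small intestine of 526.

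The share of E13 regions found in KO follows from the choice of members and is given here as description. Of 7576 regions with peaks in both E13 lists and in no wild-type E16 list, 69.6% (68.6 to 70.7) had a KO peak; these are the 5276 members. Asked in the same way of each wild-type library, that is, of regions of both E13 lists with no peak in the other 4 E16 lists, the shares were 5.74% (140 of 2440) in forestomach, 7.18% (178 of 2478) in hindstomach, 8.37% (210 of 2510) in small intestine and 15.1% (409 of 2709) in colon. The colon list was the longest, with 135743 peaks, and the KO list held 107067, fewer than the 113117 of hindstomach. A single E13 list gave lower KO shares: 27.2% of regions with a peak in E13 stomach alone of the 2 E13 lists, and 10.6% to 11.4% (interval) of the 24101 with E13 intestine alone.

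**Figure D2:**
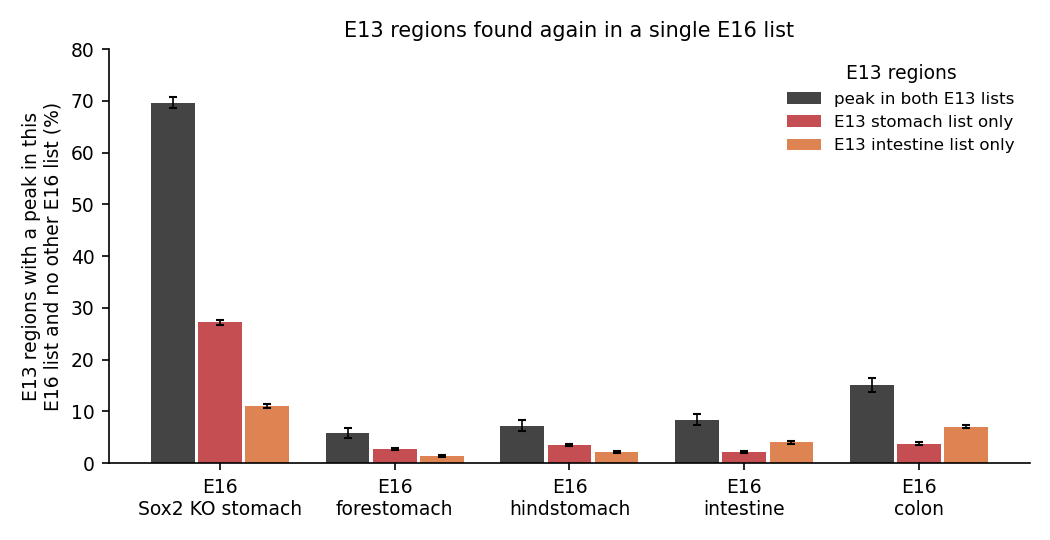
Share (%) of E13 regions with a peak in the named E16 list, among regions with no peak in the other 4 E16 lists; bar colours give the E13 lists that held the region and error bars are 95% Wilson intervals (counting error only). The KO share of regions in both E13 lists is 69.6%, against 5.74% to 15.1% in the 4 wild-type E16 lists.

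KO peaks were frequent at all regions of both E13 lists, and the more so where wild-type E16 lists also held them. The KO share was 69.6% with 0 wild-type E16 lists, 82.1% with 1, 88.1% with 2, 91.0% with 3 and 93.5% with all 4. The members thus made up 15.0% of the 35131 regions that both E13 lists and KO shared. Adding exactly 1 wild-type list to the 3 gave 2689 regions for hindstomach, 612 for forestomach, 582 for small intestine and 412 for colon. Among the 7576 regions without a wild-type E16 peak, KO peaks were found in 88.6% (86.7 to 90.4) of those at gene ends, in 71.6% (70.0 to 73.2) of those inside genes and in 61.6% (60.0 to 63.3) of those between genes. The share went with E13 peak width as well: with regions ordered by their smaller E13 peak and cut into 4 bins, it was 60.1%, 61.0%, 74.3% and 83.7% from the narrowest bin (62 to 73 bp) to the widest (up to 753 bp). Width moved with the KO share in this way, and its part in the share was not tested.

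Members lay at gene ends more often than all regions did. The gene table used lists no strand, so a gene end here means the first or last base of a protein-coding gene with the 1 kb around it. Of the members 999 (18.9%) lay there, against 8.32% of all regions. The share was 5.57% where KO lacked the peak (both E13 lists only), 10.00% for E13 stomach with KO and 13.7% for E13 intestine with KO, and 20.5% for both E13 lists with KO and hindstomach. Regions of all 7 libraries had 55.9%. Inside genes lay 41.1% of members and between genes 40.0%.

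**Figure D3:**
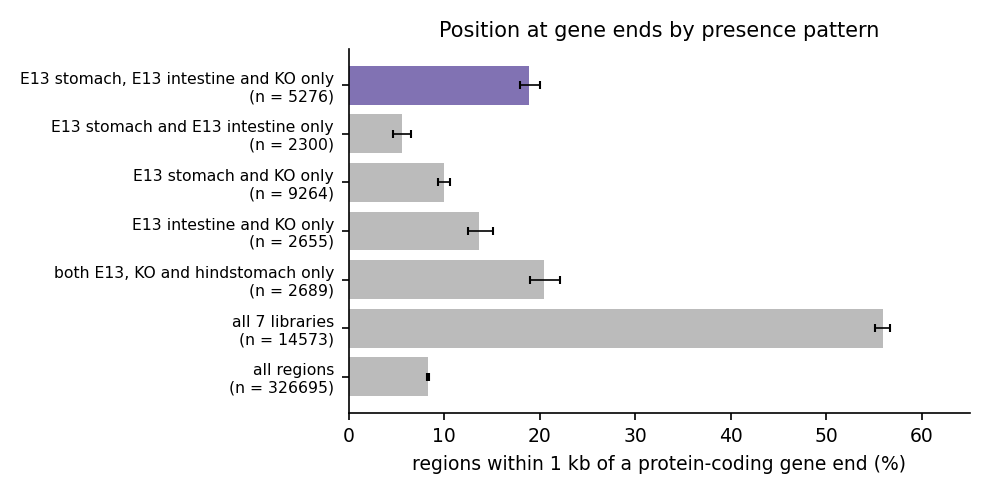
Share (%) of regions at gene ends (at most 1 kb from the first or last base of a protein-coding gene), by the lists that held the region, with the number of regions and 95% Wilson intervals (counting error only). The members (18.9%) lie above both E13 lists alone (5.57%) and all regions (8.32%), and below regions of all 7 libraries (55.9%).

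Promoter sequence at members stood apart from that at starts open everywhere in some features and not in others. Members covered 577 of 21020 RefSeq start windows (250 bases before to 50 after a start), at 528 genes. Their median GC content was 64.7% and they held a median of 20 CG dinucleotides, against 62.3% and 23 for the 8259 windows under regions of all 7 libraries and 56.7% and 13 for all windows. The letters CCGGAAG, bound by ETS factors, were present on either strand in 5.89% (4.25 to 8.12) of member windows, in 22.1% of windows open in all 7 and in 11.7% of all windows. The NRF1 motif was in 5.55%, 12.8% and 6.44%, AAGATGGCG (YY1) in 0.347%, 3.74% and 1.84%, and CCAAT (NFY) in 27.9%, 42.8% and 38.5%. GGGCGG (SP and KLF factors) was in 66.9%, 70.6% and 46.6%.
ETS, NRF1 and YY1 motifs are known from promoters of genes active in most cells. Their letters were rarest in member windows and most frequent in windows open in all 7. The letters of SOX, CDX and GATA factors did not follow that order. AACAAAG, which SOX factors bind, was in 4.33% (2.95 to 6.32) of member windows, in 2.97% of windows open in all 7 and in 5.00% of all windows; TTTATGG (CDX) was in 1.56%, 1.36% and 2.28%, and AGATAA, which GATA factors bind, in 5.37%, 4.94% and 9.69%. The variants AACAATG (SOX) and TTTATTG (CDX) were in 1.04% and 3.22% (members and all windows) and in 2.08% and 3.71%. In the same order, TGTTTAC (FOXA) was in 2.43%, 2.30% and 3.03%, CATTCC (TEAD) in 12.0%, 10.6% and 13.5%, TGACAG (MEIS) in 14.6%, 16.1% and 18.3%, and CACGTG (E-box) in 7.28%, 11.2% and 7.91%. TGANTCA (AP-1) was in 2.25%, 4.21% and 7.04%, TGACGTCA (CRE) in 2.25%, 3.96% and 2.26%, TATAAA, which the general factor TBP binds, in 4.68%, 5.52% and 12.7%, and TTTCGCGC (E2F) in 1.04%, 0.884% and 0.457%. AACCGGTT (GRHL) was in 0.173% (1 of 577 windows), 0.339% and 0.181%, which is the order of the ETS letters. CAAAGTCCA (HNF4) was in 0 of 577 member windows, which is up to 0.661%, against 0.375% and 0.457%, and the HNF1 motif in 0, 0 and 0.00476%. Start windows hold only 526 of the 5276 members (9.97%); the sequence of the others was not analysed here. These matches describe letters in a window, and no binding was measured.

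At 588 gene ends (1.36% of 43164) the pattern held for the whole end: a peak lay within 1 kb in both E13 lists and KO and in no wild-type E16 list. A member lay within 1 kb of 525 of the 588 ends; at the others the 3 libraries had peaks in regions of another pattern. The ends belonged to 604 genes, since neighbouring genes can share an end position, or 2.79% of protein-coding genes. The gamma protocadherin genes (Pcdhga, Pcdhgb and Pcdhgc), which end at almost the same place on chromosome 18, each count in that number. Of 500 genes in the 25 lists 19 (3.80%) were among the 604. Of the secretory and endocrine genes they included Neurod1 and Insm1, transcription factors of hormone-making cells, and Pou2f3, the regulator of tuft cells. Sst, which encodes the hormone somatostatin, was among them at both of its ends. Ptf1a, a pancreas regulator, belonged to them too. Of the genes named here, Insm1, Ptf1a and Hand2 had no member within 1 kb of that end. In signalling pathways they included Gli3 and the receptor gene Ptch1 of the Hedgehog pathway, and the ligand Fgf3 and receptor Fgfr4 of the FGF pathway. Others mark cells outside the epithelium: Hand2 of enteric neurons, Ikzf1 and Lyl1 of blood cells, and Dcn of fibroblasts. These are examples from lists of 14 neural crest and neuron, 16 blood and immune and 21 mesenchyme markers. None of the 13 endothelial markers had such an end, and shares by list were not computed for these ends. Further genes were Ccnd2 (a cyclin), Tjp1 (a tight junction protein), Hoxb2 and Rpl22. Counted gene by gene, 177 ends lay at an annotated RefSeq start. Among the genes named in this paragraph these were Neurod1, Ptf1a, Hand2, Gli3, Fgf3 and Fgfr4, and the other named ends need not be promoters. The share of ends found in KO follows from the choice of these ends and is given as description. Of the 651 ends with a peak in both E13 lists and none in wild-type E16, KO held 90.3% (87.8 to 92.4). The like shares for each wild-type list leave out ends with a peak in KO or another E16 list. They were 7.35% (5 of 68) in forestomach, 8.70% (6 of 69) in hindstomach, 10.0% (7 of 70) in small intestine and 17.1% (13 of 76) in colon.

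More mesenchyme and neural marker genes had a peak at an end in each of the 3 libraries of the members than in any wild-type E16 list. Counts of blood and endothelial marker genes overlapped between the 3 libraries and the wild-type E16 lists. Of 22 pan-epithelial genes, a peak within 1 kb of an end was present for 21 in E13 stomach, 18 in E13 intestine and 22 in KO, and for 17 to 20 in the wild-type E16 lists. Of 21 mesenchyme markers the counts were 11, 13 and 15 against 4 to 9, and of 14 neural crest and neuron markers 11, 11 and 12 against 5 to 7. Of 16 blood and immune markers they were 7, 6 and 10 against 4 to 7, and of 13 endothelial markers 4, 6 and 7 against 3 to 6. Over all 21631 protein-coding genes the shares were 65.2%, 62.4% and 68.6% against 54.6% to 62.2%. Whether cells other than epithelium had a part in the member regions was not tested.

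Of the members 4628 (87.7%) were assigned to a protein-coding gene, the one whose body was nearest within 100 kb, and they made up 1.75% of all regions so assigned. At least 1 member lay at 3499 of 20557 genes (17.0%), at least 2 at 769 (3.74%) and at least 3 at 234 (1.14%); genes with 3 or more had a median of 59 regions, against 7 over all genes. Each member count is therefore given with the number of regions at that gene. Most members lay at Hrh1, a histamine receptor gene, with 13 of 82 regions, and at its neighbour Atg7, an autophagy gene, with 12 of 117. A single 250 kb stretch from 114500000 to 114750000 on chromosome 6 held 19 members among 142 regions, and between 36 and 71 peaks in each of the 7 lists, where the median stretch with a region had 7 to 13. All 7 lists were dense there, and without this stretch 5257 members were left. Dab1, an adaptor of neuronal migration, had 9 of 159, Macrod2 8 of 224, Agap1 7 of 99, Usp29 7 of 57, Frmd4a 6 of 133, Slit3, a guidance ligand, 6 of 99, Sestd1 5 of 23 and Gli2 5 of 83.

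By share of its own regions, Egfl7 came first among genes with at least 3 members and 5 regions. Egfl7 encodes a protein secreted by endothelial cells, and 3 of its 8 regions were members. The KO list held all 8, each E13 list 5, and the wild-type E16 lists 0 or 1. Its widest member (chr2:26556627-26557266), 23.8 kb outside the gene, had peaks of 529 bp in E13 stomach, 196 bp in E13 intestine and 639 bp in KO. Sestd1 followed with 5 of 23, Cibar2 and Macrod1 each with 3 of 14, and Fgfr1, an FGF receptor, with 4 of 19. Cacng5 had 3 of 16, Igdcc3 3 of 17, Hgf, a growth factor made by mesenchyme, 3 of 18, Banp 3 of 18 and Hrh1 13 of 82. At Hgf, 2 members lay next to each other over annotated starts, with peaks of 191, 93 and 277 bp at chr5:16553354-16553631 and of 96, 299 and 204 bp at chr5:16553744-16554043 in E13 stomach, E13 intestine and KO.

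The Hedgehog genes had the highest share of the 25 lists, which were drawn up with earlier results of these data known and give no independent support. Of 423 regions at 13 Hedgehog genes 21 were members (4.96%, 3.27 to 7.47, against 1.75% at all genes). At least 1 lay at 9 of the 13, with a median of 2 members per gene against 0 over all genes and a median of 31 regions per gene against 7. Among ligands, Shh had 1 of 32 and Ihh, the ligand of later intestine, 0 of 4. Among receptors and co-receptors, Ptch1 had 2 of 37, Gas1 3 of 44, Boc 2 of 30, Cdon 0 of 31 and Hhip, a decoy receptor, 2 of 51. Downstream, Smo had 1 of 8, Sufu, which restrains GLI proteins, 2 of 28, Gli1 0 of 4, Gli2 5 of 83 and Gli3 3 of 65. A raised share at Hedgehog genes was not particular to the members. E13 intestine with KO held 2.13% of their regions (0.881% at all genes) and E13 stomach with KO 4.26% (2.99%). Both E13 lists only held 0.236% (0.659%), and both with KO and hindstomach 0.709% (0.928%). GLI factors, HHIP and GAS1 act mainly in the mesenchyme of the gut. The gene-end counts of mesenchyme markers are given above, and 7 of the 326 regions at these markers (2.15%, 1.04 to 4.37) were members. Whether mesenchymal cells had a part in the Hedgehog share was not tested.
At Gli2, the main activator among GLI factors, 3 members lay inside the gene and the others 44.8 and 43.8 kb outside it. The member at chr1:118982479-118982782 had peaks of 235 bp in E13 stomach, 132 bp in E13 intestine and 303 bp in KO. The one at chr1:119033845-119034234 had 389, 189 and 275 bp, with a wild-type E16 peak 0.371 kb away. At Gli3 the region over the start, described above, was joined by 2 inside the gene, at chr13:15542125-15542419 and chr13:15707394-15707758, with peaks of 294, 176 and 200 bp and of 255, 69 and 356 bp. Gas1 had a member over its start (chr13:60177418-60177829; 393, 345 and 289 bp), and its member at chr13:60176352-60176723 had no base common to all 3 libraries. The member over the start of Hhip (chr8:80057879-80058150; 231, 200 and 215 bp) lay 0.115 kb from a wild-type E16 peak.

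**Figure D4:**
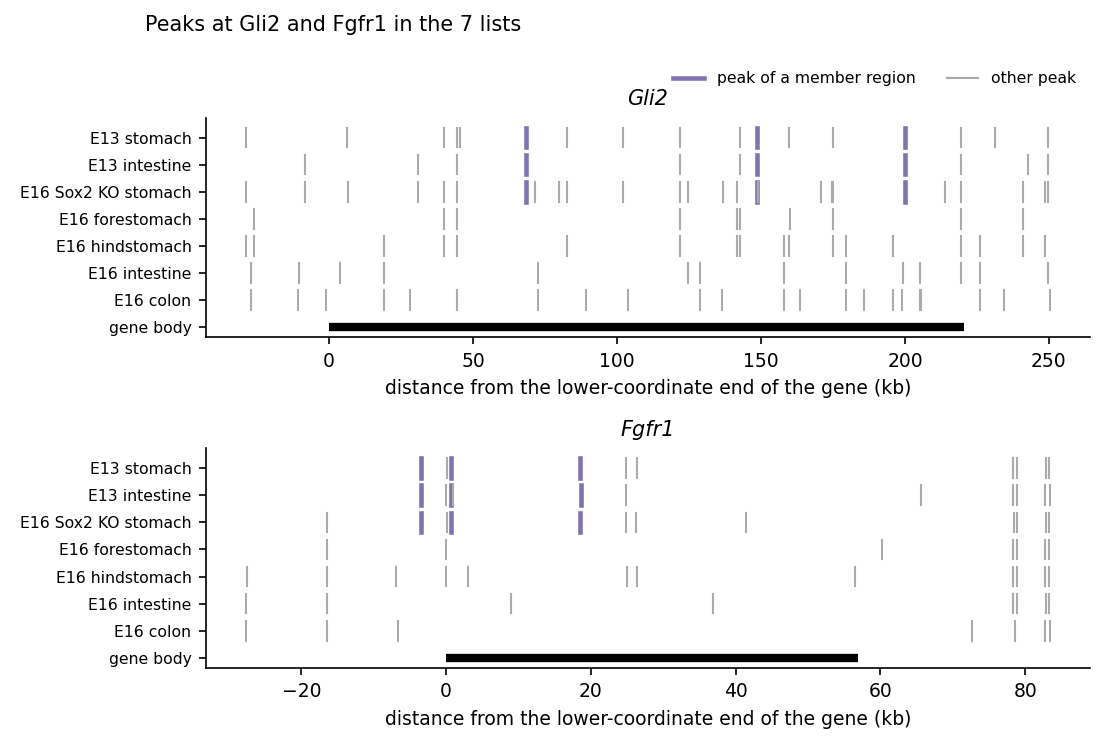
Peaks of the 7 lists at Gli2 and Fgfr1 as vertical ticks at their centres, by distance in kb from the lower-coordinate end of the gene (black bar, gene body); purple ticks belong to member regions and grey ticks to all others. Each gene shows 3 of its members (of 5 for Gli2 and of 4 for Fgfr1), present in the top 3 rows alone; the others lie outside the plotted range.

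Secretory and endocrine genes and FGF genes had the next highest shares in this assignment, but not in every alternative. Away from gene ends, where 1.53% of all assigned regions were members, secretory and endocrine genes had 3.12% (1.52 to 6.31) and FGF genes 2.74% (1.45 to 5.12). Both intervals then included the share over all genes, and ribosomal protein genes (3.31%) and enterocyte genes (3.27%) lay higher. With the widest peaks at equal list length the FGF share was 3.62% (2.03 to 6.36) against 2.38% over all genes. Hedgehog genes had the highest share in all 3 alternatives run, at 6.05% with genes within 10 kb, 7.28% with the widest peaks and 4.03% away from gene ends. At 21 FGF genes 13 of 380 regions were members (3.42%, 2.01 to 5.76), at 9 of the genes. Among ligands Fgf3 (1 of 9), Fgf9 (1 of 27) and Fgf18 (1 of 22) had a member, and Fgf10, the mesenchymal ligand, had 0 of 30. Among receptors Fgfr1 had 4 of 19, Fgfr2 1 of 52, Fgfr4 1 of 9 and Fgfr3 0 of 11. Of genes induced by FGF, Spry2 had 2 of 45, Etv4 1 of 13 and Dusp6 1 of 21, while Spry1, Spry4 and Etv5 had 0. The Fgfr1 members were a region 34.8 kb outside the gene, with peaks of 161, 62 and 458 bp in E13 stomach, E13 intestine and KO, 1 lying 3.44 kb outside (84, 109 and 120 bp), 1 inside it 0.583 kb from its end (77, 95 and 169 bp) and 1 further inside (172, 128 and 310 bp). The KO peak was the widest in all 4. Of the other patterns, E13 stomach with KO held 5.00% of the regions at FGF genes (2.99% at all genes). Both E13 lists only held 0.526% (0.659%), E13 intestine with KO 0.526% (0.881%), and both E13 lists with KO and hindstomach 0.789% (0.928%).
At 22 secretory and endocrine genes 11 of 254 regions were members (4.33%, 2.44 to 7.59), at 8 of the 21 genes with a region. Rfx6 and Pax6, endocrine transcription factors, and the tuft cell marker Dclk1 had 2 each, of 20, 32 and 47 regions. Atoh1, which specifies secretory cells, had 1 of 17, Neurod1 1 of 13, Nkx2-2 1 of 22, Sst 1 of 17 and Pou2f3 1 of 14. Neurog3, which starts the endocrine lineage, had 0 of 6. Other patterns also had raised shares at the secretory and endocrine genes. Both E13 lists only, without KO, held 2.36% of their regions (0.659% at all genes) and E13 intestine with KO 2.36% (0.881%). Both E13 lists with KO and hindstomach held 1.18% (0.928%), and E13 stomach with KO 2.76% (2.99%).

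**Figure D5:**
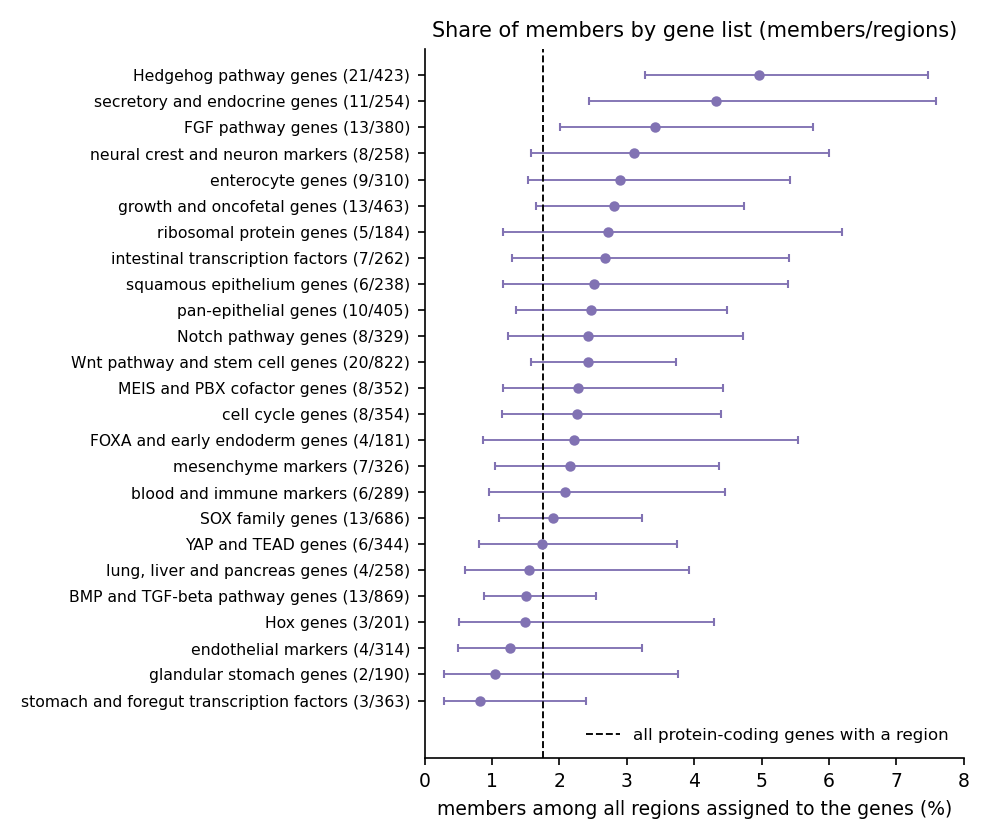
Members as a share (%) of all regions assigned to the genes of each of 25 lists, with 95% Wilson intervals (counting error only); the dashed line is the share over all protein-coding genes with a region (1.75%). Hedgehog (4.96%), secretory and endocrine (4.33%) and FGF genes (3.42%) have intervals above the line in this assignment; away from gene ends only Hedgehog genes among these 3 keep an interval above the share over all genes. Stomach and foregut transcription factors (0.826%) have the lowest share.

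The intervals of the other 22 lists included 1.75%. Wnt pathway and stem cell genes had 20 of 822 regions (2.43%) at 15 of 25 genes, among them Ephb2 with 3 of 58 and Sox9, Myc and Rnf43 with 2 each. Growth and oncofetal genes had 13 of 463 (2.81%), with 3 at Igf1r and 2 each at Sall4, Trim71 and Igf2bp1, the last 3 being genes of early embryonic cells. Neural crest and neuron markers had 8 of 258 (3.10%), mesenchyme markers 7 of 326 (2.15%), blood and immune markers 6 of 289 (2.08%) and endothelial markers 4 of 314 (1.27%), of which 3 lay at Egfl7. BMP and TGF-beta genes had 13 of 869 (0.876% to 2.54%), 4 of them at Smad6, an inhibitor of BMP signalling. Pan-epithelial genes had 10 of 405 (2.47%), with 2 of 7 at Krt8, a keratin of simple epithelium.

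Organ identity genes differed in their shares, and the intervals of their lists included 1.75%. Stomach and foregut transcription factors had 3 of 363 regions (0.826%, 0.281 to 2.40), 1 each at Barx1, Pitx1 and Isl1. Sox2 had 0 of 39 regions. E13 stomach had a peak in 9 of these, KO in 13 and E13 intestine in 3, so at most 3 could be members. Gata4, a regulator of glandular stomach and intestine, had 0 of 37. The median over all genes with a region was also 0 members. Glandular stomach genes had 2 of 190 (1.05%, 0.289 to 3.76). Intestinal transcription factors had 7 of 262 (2.67%, 1.30 to 5.41), with 2 of 21 at Hnf4a and 0 of 6 at Cdx2. Foxa1, which opens chromatin in early endoderm, had 2 of 14, with peaks of 341, 276 and 542 bp at chr12:57534592-57535209 and of 168, 104 and 470 bp at chr12:57545732-57546202 in E13 stomach, E13 intestine and KO. Wild-type E16 peaks lay 0.874 and 0.352 kb from these.

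The members with the largest smallest peak were no group of gut regulators. The first lay inside Atp6v1h, a subunit of the proton pump of acidic organelles (chr1:5110054-5111203), with peaks of 1057, 753 and 1149 bp in E13 stomach, E13 intestine and KO and a wild-type E16 peak 1206 bp away. After Syndig1 came Kcnn2, a potassium channel gene, with 692, 504 and 514 bp, Tmem229a with 495, 554 and 621 bp, Pak7, Arhgef10l with 509, 461 and 532 bp, Zfp600 with 779, 461 and 566 bp, Arhgef40, Defb7 with 491, 410 and 546 bp, and Gli3. The median member region was 212 bp wide.

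Members were spread over the genome. They made up between 1.30% (chromosome 3) and 1.94% (chromosome 4) of the regions of each chromosome, and 3738 of 10294 stretches of 250 kb with a region held at least 1. The next region lay a median of 1.10 kb away, against 1.89 kb for all regions, and was itself a member for 3.22% of members, against 1.74% of all regions. KO stomach had a peak in 42.9% of the regions next to a member and in 33.1% of those next to any region. E13 stomach had 31.7% and 28.9%, and E13 intestine 25.5% and 23.1%. Wild-type E16 lists had similar rises in forestomach (28.8% and 26.0%) and hindstomach (35.7% and 33.1%). Small intestine had 29.5% and 28.4%, and colon 37.7% and 39.4%.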

How the data were processed

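The data are ATAC-seq peak lists of 7 libraries. For the authors' processing the submitters' notes list cutadapt, Bowtie2 and MACS2, with the build GRCm38 (mm10); neither versions nor thresholds are given there. The deposited lists hold 3 columns without a header, chromosome, start and end, and no height, score or count, so depth is unknown. Positions are printed as deposited and read as counting from 0. The members and gene lists were chosen with earlier results of these data known.

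Peaks on chromosomes 1 to 19 and X (81179 to 135743 per list) were merged, and each region went to the protein-coding gene whose body lay nearest, at most 100 kb away (of overlapping bodies the shortest), in the GRCm38.p6 RefSeq table. Start windows and sequences came from the RefSeq promoter table of the same build, which covers a part of the genes. The 21 motifs were searched on both strands. Named genes are the 10 with most members, the 10 with the highest share, list genes with at least 2 members (up to 4 per list), the 10 members with the largest smallest peak, and Sox2, Cdx2, Shh and Gata4; the text also gives other list genes, chosen after their values were seen. A few list genes count in the totals but are not reported here by name. Alternatives varied peak width, list length, merging, windows and gene distance. The merging and distance code was tested on simulated data. Python 3.11.15, numpy 2.4.6, pandas 2.3.3 and matplotlib 3.10.9 were used.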

Additional observations from a re-analysis of the deposited data

How the results depend on the processing

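No paired analysis was possible because each group had 1 library, and for the same reason no library could be left out of a group. The number of members stayed within 1.5 times of 5276 under every alternative run: 5398 when lists were cut to their widest 81179 peaks, 4129 with each list thinned at random to 81179 peaks, 4775 with peaks within 200 bp merged, 5288 when peaks had to share at least 50% of the shorter one with an E13 stomach peak, 4120 without a wild-type E16 peak within 500 bp, and, added after the data were seen, 5115 with a base under all 3 peaks and 5257 without the dense stretch of chromosome 6. These are counts, and which regions were shared between settings was not computed. The KO share of regions in both E13 lists and no wild-type E16 list was 64.5% with the widest peaks, 53.6% with thinned lists and 68.1% with merging within 200 bp, against 69.6%; the shares in wild-type E16 lists ran from 5.74% to 17.0% under the same settings. The share of members at a gene end was 23.0% with a 2 kb window, 14.8% with 500 bp, 21.4% with the widest peaks and 15.6% with merging within 200 bp, against 18.9%; for all regions it was 11.4%, 6.06%, 9.77% and 7.53%. The share of assigned members at any list gene, 4.52%, stayed between 4.09% and 4.60%. Of the 25 lists, the member share left its interval for stomach and foregut transcription factors with genes within 10 kb (0 of 131 regions), for mesenchyme markers away from gene ends (1.03%), and for no list with the widest peaks. Against the share over all genes in the same setting, the interval of Hedgehog genes lay above it in all 3 alternatives. That of secretory and endocrine genes (1.52% to 6.31%, against 1.53%) included it away from gene ends. That of FGF genes included it both there and with the widest peaks. Other lists had intervals above it in some alternatives. Away from gene ends these were enterocyte genes (1.73% to 6.10%) and Wnt pathway and stem cell genes (1.59% to 3.83%). With genes within 10 kb they were neural crest and neuron markers, cell cycle genes, and growth and oncofetal genes. With the widest peaks cell cycle genes lay above it. Depth and peak strength are unknown, so whether a region missing from a list was closed or below the caller's threshold was not tested.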

Other observations

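Hairpins of 13 microRNAs lay within 1 kb of a member, and those of Mir137, Mir330, Mir7237 and Mir128-2 overlapped it. Mir375, a microRNA known from endocrine cells, lay 77 bp from the member at chr1:74900430-74900581, and Mir203, known from stratified epithelium, 24 bp from the one at chr12:112130446-112130856. These were chosen after their distances were seen, and no count of hairpins near all regions is set beside them.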
